A study of Drosophila melanogaster with 4 samples.

Results

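Transcripts of *miple1* and *jeb*, genes for secreted growth factors, were measured in whole *Drosophila melanogaster* embryos that lacked HOW and in wild-type embryos. The probe sets were those that the platform annotation assigns to *miple1* (gene ID 38047, locus CG1221, chromosome arm 3L) or *jeb* (gene ID 36295, locus CG30040, arm 2R). These are 2 of 10844 genes with a probe set of their own name: *miple1* has 1 probe set (144176_at) and *jeb* has 2 (151236_at and 147053_at). The mutant group had 2 one-colour Affymetrix arrays of *how* GLC embryos, the homozygous *how* progeny of germline-clone mothers, which carry neither maternal nor zygotic HOW. They were picked from their siblings under a fluorescence microscope with the help of a GFP balancer. The wild-type group had 2 arrays of embryos of the yw stock. Both groups were collected for 2 h and aged 3 h at 25 °C, giving an age of 3 to 5 h after egg laying, and each array held RNA pooled from 5 preparations of about 100 embryos. The labels name neither the *how* allele nor the balancer chromosome, and yw embryos do not come from germline-clone mothers, so the groups differ in maternal genotype and stock as well as in *how*.

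*miple1* and its neighbour *miple2* encode the fly relatives of the vertebrate heparin-binding growth factors midkine and pleiotrophin, which bind proteoglycans at the cell surface. *jeb* (*jelly belly*) encodes a secreted protein with an LDL-receptor type A repeat. It is made by somatic mesoderm cells and activates the receptor tyrosine kinase Alk on the neighbouring visceral mesoderm, where Ras and MAP kinase signalling then selects the founder cells of the gut muscle. The Miple proteins have also been examined as possible Alk ligands. HOW is a STAR-family RNA-binding protein of the mesoderm, and its long isoform promotes the decay of mRNAs to which it binds. *miple1* is a HOW-repressed mRNA in published work from this study, so its level here is not independent evidence of that.

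The values are MAS5 signals, a linear measure of brightness that depends on the probes, so a brighter probe set need not mean more RNA. Percentiles and summed signals given below describe brightness only. All 4 arrays had the same trimmed mean of 250.04, and their median over gene probe sets ranged from 75.5 to 82.15. The probe sets whose mean log2 signal was below 39.5 on the signal scale, the 40th percentile, were called dim and left out of the test. Of 18 genes of the early embryo 13 had a named probe set and 12 were tested, and limma called 0. Since it called 3.24% of all 6855 genes tested by their brightest probe set, a count of 0 does not set these genes apart. At an unadjusted p under 0.05 by limma were 3, *ush*, *pnr* and *fkh*, with log2 changes of 0.82, 0.40 and 0.42. At least 1303 of all 8380 probe sets tested were also under that threshold, the share to set beside each such count below. Whether 3 of 12 exceeds that share was not tested. The log2 changes of the 12 ran from -0.55 (*eve*) to 0.82 (*ush*). As examples with clear signal in both groups, the mesoderm gene *sna* had signals of 1950 and 1830 in the mutant and 2060 and 2150 in wild type, and the segmentation gene *odd* had 711 and 661 in the mutant and 744 and 641 in wild type. No probe set carried the name *how*, and its own level was not analysed here.

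*miple1* rose in the mutant. Its signal was 339 and 284 on the mutant arrays, against 30.4 and 16.7 on the wild-type arrays. Both mutant arrays lay far above both wild-type arrays; a lack of overlap by itself was common, at 46.8% of all tested probe sets. Each single mutant array exceeded each single wild-type array by 9.34-fold to 20.3-fold, while arrays of the same group differed by 1.20-fold in the mutant and 1.82-fold in wild type. The means were 311 ± 39.4 in the mutant and 23.5 ± 9.67 in wild type (SD, n = 2 each). On the scale of each array's own signals, *miple1* stood at percentiles 76.6 and 73.2 of the gene probe sets in the mutant and at percentiles 35.4 and 24.3 in wild type. It therefore belonged to the brighter part of the array in the mutant and to the dim part in wild type.

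The log2 change of *miple1*, mutant minus wild type, was 3.78 ± 0.37 (SE), or 13.8-fold, with a 95% interval of 2.92 to 4.65 that is not adjusted for the number of probe sets. Both wild-type signals were under 39.5, so *miple1* passed the filter on dim probe sets only through its mutant arrays. Among the probe sets so filtered, it passed limma's test after Benjamini-Hochberg adjustment over all tested probe sets (adjusted p = 0.0022). Of 8380 probe sets tested, 3.04% were called in either direction and 1.75% were called higher.

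The wild-type signals of *miple1* were both dim, so the fold rests on how low signals are read. With every signal under 39.5 raised to 39.5, the fold was 7.84 (log2 change 2.97, limma adjusted p = 0.00241), and with 50 added to every signal it was 4.92 (log2 change 2.30, limma adjusted p = 0.000763). The call was lost when dim probe sets were kept (limma adjusted p = 0.126), a fit in which 0 of 13966 probe sets passed and 1782 had an unadjusted p under 0.05. Of all 13966 gene probe sets, 165, *miple1* among them, were under 39.5 on both wild-type arrays and over it on both mutant arrays.

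**Figure D1:**
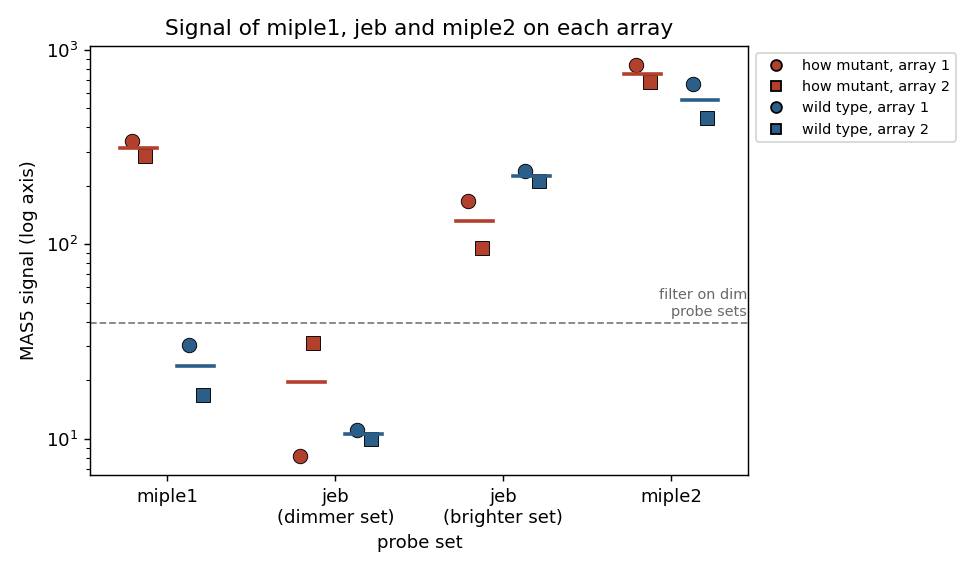
MAS5 signal (log axis) of the probe sets of *miple1*, *jeb* and *miple2* on each array, with mutant arrays in red left of wild-type arrays in blue. Circles are arrays numbered 1, squares are arrays numbered 2, horizontal bars are group means and the dashed line is the signal of 39.5 used to call probe sets dim. The mutant arrays of *miple1* lie at 339 and 284, and its wild-type arrays lie under the dashed line.

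*miple2*, the other midkine-family gene, was bright in both groups. It had signals of 832 and 680 in the mutant, against 666 and 445 in wild type. The groups did not overlap, as for 46.8% of all tested probe sets, and the lower mutant array exceeded the higher wild-type array by only 1.02-fold. Its log2 change of 0.47 ± 0.22 (SE) did not pass limma's test (adjusted p = 0.343), with an unadjusted 95% interval of -0.03 to 0.97. Of the 2 midkine-family genes, only *miple1* itself was therefore called higher, beside 1.87% of all genes tested. Since *miple1* was chosen beforehand, this count says nothing about the family. The difference between the changes of the 2 genes was not tested.

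For *jeb* the brighter probe set was lower in the mutant without passing the test. Its signal was 168 and 95.5 on the mutant arrays, against 239 and 213 on the wild-type arrays. The groups did not overlap, as for 46.8% of all tested probe sets. The mutant arrays differed by 1.76-fold between themselves, more than the 1.27-fold between the higher mutant and the lower wild-type array. The means were 132 ± 51.1 in the mutant and 226 ± 17.9 in wild type (SD, n = 2 each). The log2 change was -0.83 ± 0.29 (SE), with an unadjusted 95% interval of -1.51 to -0.15, and limma's adjusted p was 0.211.

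The size of the *jeb* difference depended on the mutant arrays. Without mutant array 1 the log2 change was -1.24, and without mutant array 2 it was -0.43 (limma adjusted p = 0.115 and 0.609). The arrays stood at percentiles 63.1 and 53.8 in the mutant and 70.2 and 68.2 in wild type. The probe set thus stayed in the upper part of each array in both groups.

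The other *jeb* probe set was dim on every array and was not tested. Its signal was 8.19 and 31.0 in the mutant, against 11.1 and 9.98 in wild type. The wild-type arrays lay between the mutant arrays, so it gave no direction to set beside that of the brighter probe set. With dim probe sets kept, limma's adjusted p for it was 0.815. In all, 2 of the 3 probe sets of the growth factor genes passed the filter on dim probe sets.

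**Figure D2:**
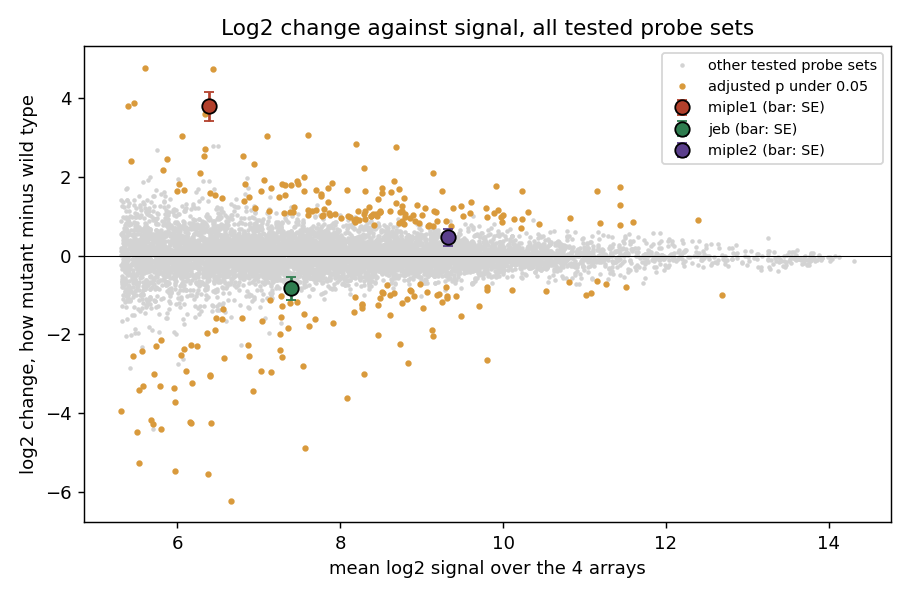
Log2 change, mutant minus wild type, against mean log2 signal for the 8380 tested probe sets, with called probe sets in orange. *miple1*, *jeb* (brighter probe set) and *miple2* are drawn with limma's SE: *miple1* at 3.78 is called, while *jeb* at -0.83 and *miple2* at 0.47 are not called.

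The genes next to the growth factor genes along the chromosome were compared with them, from the order of genes in the RefSeq table of Release 6 plus ISO1 MT. *miple1* and *miple2* are adjacent, with 0 annotated genes between them. Of the 6 nearest genes with a named probe set around *miple1*, 5 were tested, and limma called 0 (0 at an unadjusted p under 0.05). Beside the 3.24% of all genes called, a count of 0 does not set them apart. The groups did not overlap for any of the 5, as for 46.8% of all tested probe sets. The log2 changes of the 5 ran from -0.22 to 0.47. On the side away from *miple2*, the mitochondrial ribosomal protein gene *mRpL17* was at 0.41, *Tudor-SN*, whose product is a nuclease, at 0.21 and *wac* at -0.15. On the other side, beyond *miple2*, *ttm2* was dim and the phosphatidylinositol kinase gene *fwd* was at -0.22. All 5 tested neighbours had changes far smaller than that of *miple1*, at 3.78.

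Around *jeb*, 4 of the 6 nearest genes were dim, namely *CG13186*, *CG8888*, *Drep3* and *SkpB*. The other 2, *CG18343* and *Smyd4-4*, were tested, and limma called 0 of them (0 at an unadjusted p under 0.05). With 3.24% of all genes called, a count of 0 does not set these 2 apart. *CG18343*, the gene next to *jeb*, had signals of 176 and 128 in the mutant, against 207 and 221 in wild type. It was lower on both mutant arrays, as *jeb* was, with a log2 change of -0.51 ± 0.23 (SE). A lack of overlap in either direction was found for 46.8% of all tested probe sets. *Smyd4-4* was at 0.22.

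**Figure D3:**
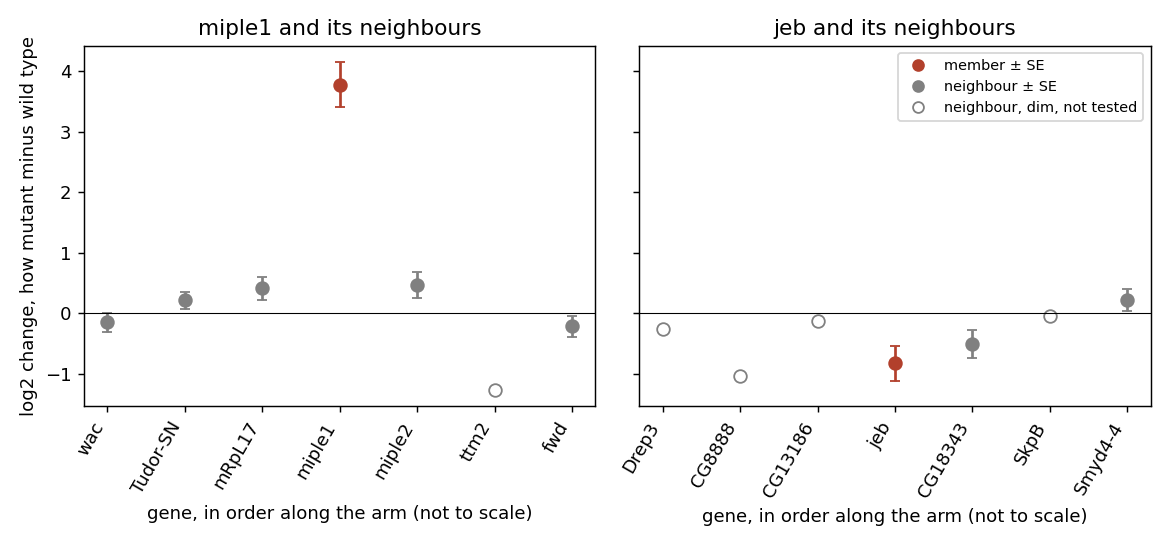
Log2 change, mutant minus wild type, of *miple1* and *jeb* (red, brighter probe set) and of the nearest genes with a named probe set, in their order along the chromosome arm; distances are not to scale. Bars are limma's SE and open circles are dim genes that were not tested. *miple1* at 3.78 stands above its tested neighbours, which lie between -0.22 and 0.47.

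The receptor of Jeb and genes that Alk signalling acts through or on were examined next. Of the 8 genes of the Alk pathway, including *jeb*, 5 were tested and limma called 0 (1, *jeb*, at an unadjusted p under 0.05), against 3.24% of all 6855 genes tested by their brightest probe set. The median log2 change of the 5 was 0.19, against 0.00 over all genes tested. *org-1*, a T-box gene of visceral founder cells, was at -0.13, and *mib2*, a ubiquitin ligase gene of muscle founders, at 0.25. *cnk*, whose product is a scaffold of Ras signalling, was at 0.19 and *Nf1*, a Ras inhibitor gene, at 0.42. None of these 4 was called by limma, which with 2 arrays per group does not show a lack of change.

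*Alk* itself was dim on average and was not tested. It had signals of 64.5 and 48.2 in the mutant, against 35.0 and 7.74 in wild type. Both mutant arrays were higher than both wild-type arrays, but the wild-type arrays lay far apart. With dim probe sets kept, the groups did not overlap for 41.1% of all probe sets, and limma did not call *Alk* (log2 change 1.76, adjusted p = 0.534). *Hand*, a transcription factor gene of heart and visceral muscle, was dim on all arrays, with signals of 38.3 and 26.8 in the mutant and 6.01 and 16.0 in wild type. *kirre*, the founder cell adhesion gene that Alk signalling switches on in visceral mesoderm, had 5.77 and 44.3 in the mutant and 7.90 and 16.6 in wild type. Its groups overlapped. Since whole embryos were used, fewer cells of a type and less RNA per cell cannot be told apart for any of these genes.

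No visceral mesoderm gene passed the test. Of 11 listed, 6 were tested and limma called 0 (1, *HLH54F*, at an unadjusted p under 0.05), with a median of -0.11. Since 3.24% of all genes were called, a count of 0 does not set this list apart, nor the lists of heparan sulfate genes and receptor tyrosine kinases that follow. *HLH54F*, a gene of the caudal visceral mesoderm, had signals of 174 and 176 in the mutant, against 99.1 and 97.5 in wild type. Its log2 change was 0.83 ± 0.23 (SE; limma adjusted p = 0.123). *bin*, a forkhead gene of the trunk visceral mesoderm in which Alk acts, had 331 and 288 in the mutant, against 338 and 462 in wild type, a log2 change of -0.35 ± 0.20 (SE; limma adjusted p = 0.442).

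Proteoglycans and the enzymes that build heparan sulfate, the sugar chain to which midkine-type factors bind, gave no call. Of 21 listed genes 14 were tested, and limma called 0 (0 at an unadjusted p under 0.05), beside the 3.24% of all genes called. Their log2 changes ran from -0.41 to 0.28 with a median of -0.08. *Sdc*, the syndecan gene, had signals of 1430 and 1330 in the mutant, against 1720 and 1490 in wild type, with a log2 change of -0.21 ± 0.14 (SE). *Hs6st*, a heparan sulfate sulfotransferase gene, was at 0.28 ± 0.20 (SE).

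Among receptor tyrosine kinases, 14 of 19 listed genes were tested and limma called 0, beside the 3.24% of all genes called. At an unadjusted p under 0.05 by limma were 4, as were at least 1303 of all 8380 probe sets tested. Whether 4 of 14 exceeds that share was not tested. The smallest p-values were those of *Ror*, a receptor gene of the nervous system, and *Ret*. *Ror* had signals of 116 and 93.7 in the mutant, against 50.2 and 41.2 in wild type, and its log2 change was 1.20 ± 0.35 (SE; limma adjusted p = 0.131). *Ret* had 367 and 512 in the mutant, against 219 and 342 in wild type, at 0.67 ± 0.26 (SE; limma adjusted p = 0.258). The list's median was 0.03.

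Among other secreted growth factors and ligands, 18 of 45 listed genes were tested, and 2 rose and 0 fell, where 1.87% of all genes tested were called higher. *mav*, the gene for the TGF-beta family ligand Maverick, had signals of 790 and 913 in the mutant, against 466 and 465 in wild type. Its log2 change was 0.87 ± 0.15 (SE; limma adjusted p = 0.0222). *fog*, the gene for the secreted gastrulation signal Folded gastrulation, had 308 and 314 in the mutant, against 177 and 135 in wild type, a log2 change of 1.01 ± 0.21 (SE; limma adjusted p = 0.0497). The median of the list was -0.02, with 9 genes above 0 and 9 below. The calls for *mav* and *fog* were both lost on leaving out any 1 array and with dim probe sets kept, and that for *mav* also with no mean-variance trend. Both scalings (quantile and median), the floor of 39.5 and the other variance models, with no trend or with robust estimates, also ended the call for *fog*.

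**Figure D4:**
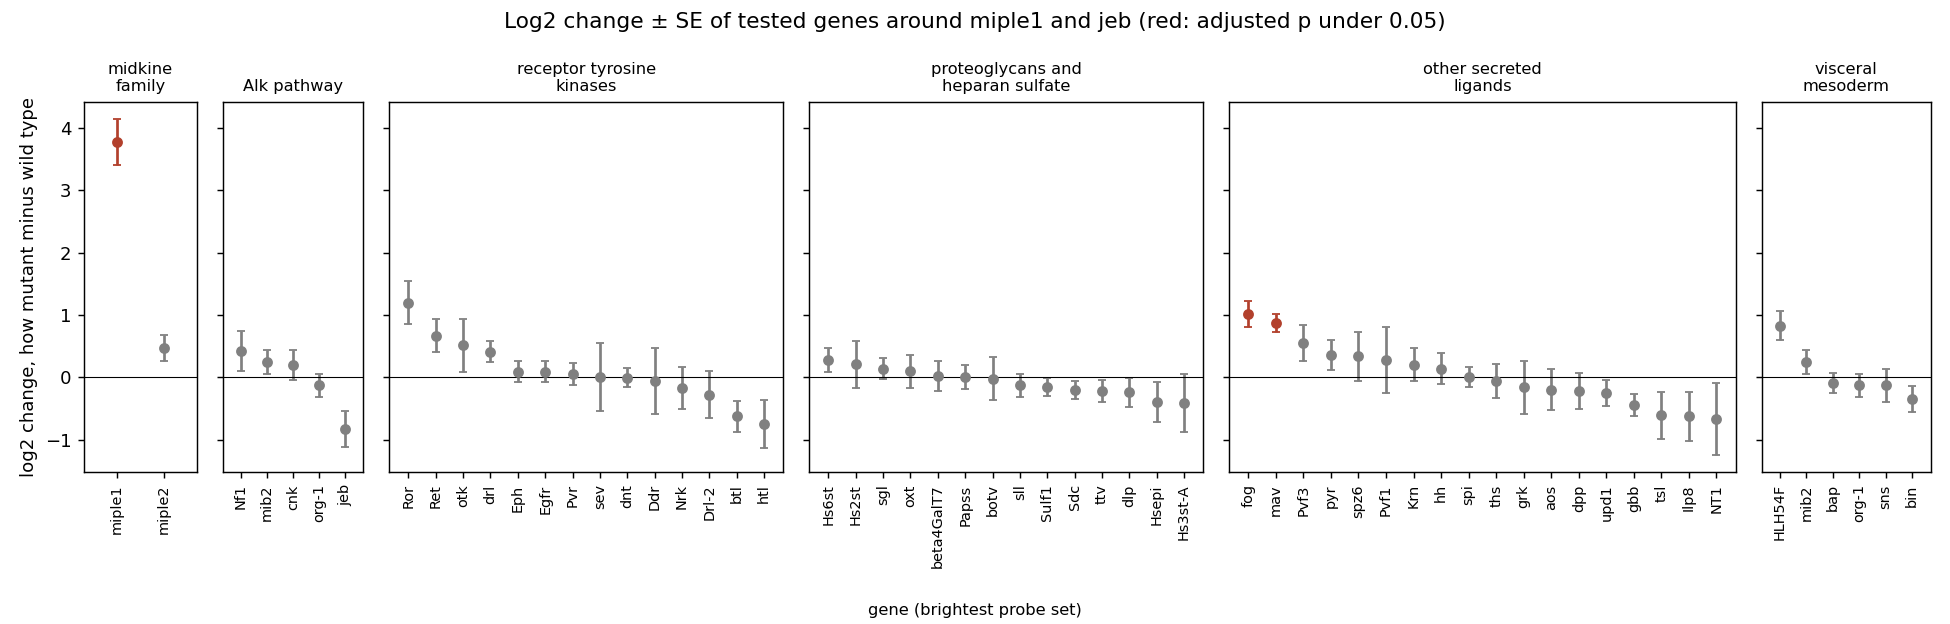
Log2 change ± limma's SE, mutant minus wild type, for the tested genes of 6 lists around *miple1* and *jeb*, each gene by its brightest probe set, with called genes in red. Only *miple1*, *mav* and *fog* are red, and no other tested gene in these lists lies above a log2 change of 1.20.

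Genes of other stages differed between the groups as well, and their part in the *miple1* result was not tested. Of 18 genes of late embryonic differentiation, 14 had a named probe set and 10 were tested. Of these, 0 rose and 7 fell in the mutant, with a median log2 change of -2.34, beside 1.37% of all tested genes called lower. The summed signal of the 14 was 747 and 932 in the mutant, against 3910 and 4080 in wild type. The genes that fell were the muscle genes *Mlc1* (-4.48), *Mlc2* (-3.61) and *up* (-2.94) and the cuticle or chitin genes *Cpr65Ea* (-4.25), *obst-A* (-2.79), *TwdlM* (-1.89) and *verm* (-1.47). The mutant signals of *Mlc1*, *up* and *Cpr65Ea* were all under 39.5. These genes passed the filter on dim probe sets only through their wild-type arrays, and the size of their changes rests on how low signals are read. With every signal under 39.5 raised to 39.5, their log2 changes were -2.44, -2.27 and -3.23. In the same list the neuronal gene *elav* was at 0.15 and the glial gene *repo* at -0.14, and neither was called. With dim probe sets kept all 7 calls were lost, those for *Mlc1* and *up* were lost on leaving out wild-type array 1 or 2, that for *verm* on leaving out mutant array 1 or wild-type array 1, and those for *TwdlM* and *verm* with no mean-variance trend.

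Of 15 maternal transcripts that are cleared early, 12 had a named probe set and 6 were tested, of which 2 rose and 0 fell, beside the 1.87% of all genes called higher. They were *dhd*, a thioredoxin gene, at 1.72 ± 0.18 (SE), and the pole cell gene *pgc* at 1.64 ± 0.34 (SE, limma adjusted p = 0.0497). *pgc* had signals of 112 and 114 in the mutant, against 35.7 and 36.8 in wild type. It thus passed the filter on dim probe sets only through its mutant arrays. The summed signal of the 12 was 8500 and 9470 in the mutant, against 9030 and 8940 in wild type, but *CycB* and *stau* carried 87.7% to 94.8% of each sum. The other 10 summed to 1040 and 891 in the mutant, against 574 and 460 in wild type, a split made after the values were seen. The call for *pgc* was lost on leaving out any 1 array, under quantile normalization, with robust estimates and with dim probe sets kept, the last of which also ended that for *dhd*. The 6 dim members, not tested and named here after their values were seen, went both ways: *osk* and *exu* were higher in the mutant, and *plu* (-0.96), *bcd* (-0.55), *png* (-0.52) and *twe* (-0.22) had log2 changes below 0. *osk* had signals of 105 and 101 in the mutant, against 24.8 and 7.09 in wild type, and *exu* had 83.3 and 46.6 in the mutant, against 8.87 and 10.7 in wild type. *plu* had 12.7 and 18.0 in the mutant, against 28.9 and 29.7 in wild type. Like *miple1*, *osk*, *exu* and the called *pgc* were over 39.5 on the mutant arrays and under it on the wild-type arrays.

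**Figure D5:**
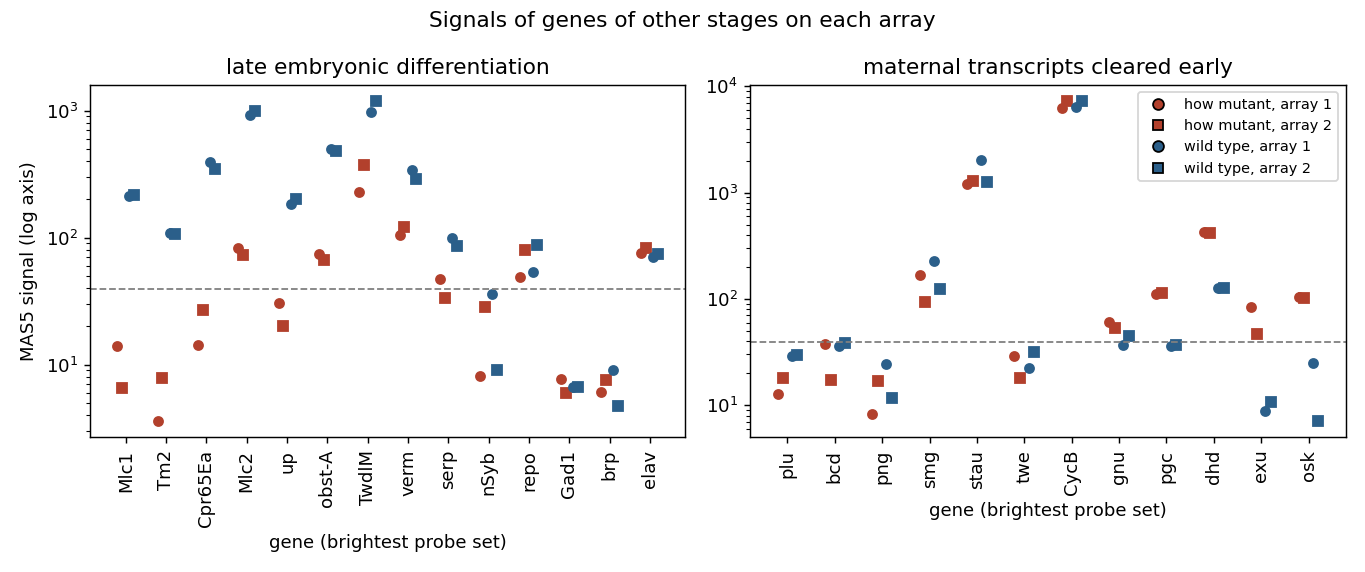
MAS5 signal (log axis) of late differentiation genes and of maternal transcripts on each array, with mutant arrays in red left of wild-type arrays in blue, circles for arrays numbered 1, squares for arrays numbered 2 and the dashed line at 39.5. The late genes at the left of their panel, such as *Mlc1* and *Cpr65Ea*, are low on both mutant arrays. Among maternal transcripts, *dhd*, *pgc*, *exu* and *osk* are higher on both mutant arrays than on either wild-type array, and *plu* is lower on both.

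The genes whose pattern was most like that of each growth factor gene were found by the root mean square difference in log2 signal, after each gene was centred on its mean over the 4 arrays, among 6854 other genes. For *miple1* these were *PGRP-SB1* (0.367), *CG5973* (0.386), *RpS10a* (0.431), *CG14502* (0.453) and *CG7650* (0.48). *PGRP-SB1*, a peptidoglycan recognition gene, had signals of 157 and 157 in the mutant, against 10.7 and 11.8 in wild type. *CG14502* had 302 and 260 in the mutant, against 20.5 and 26.8 in wild type. The changes of these 5 genes lay between 3.03 and 3.86, a likeness to *miple1* that follows from how they were picked. Each of their wild-type signals was under 39.5 except for *RpS10a* on wild-type array 1, at 59.5.

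For *jeb* the nearest were *CG6912* (0.066), *mud* (0.074), *mRpL43* (0.081), *CG12420* (0.092) and *CG7173* (0.101), none of them called. *mud*, a gene for orientation of the mitotic spindle, had signals of 400 and 240 in the mutant, against 521 and 489 in wild type. *mRpL43*, a mitochondrial ribosomal protein gene, had 310 and 192 in the mutant, against 432 and 442 in wild type. In all 5, as in *jeb*, mutant array 2 was the lowest of the 4 arrays, which also follows from how they were picked. Likeness over 4 arrays is a description, since the arrays are shared by all genes.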

How the data were processed

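The authors deposited 1 MAS5 signal intensity per probe set and array, per the submitters' processing notes; the settings are not stated in the sources used here. The labels' design text calls the samples independent, but p-values measure only the spread between these pooled RNA samples. Signals were floored at their 5th percentile (3.38) and put on the log2 scale, with no further scaling. After 44 control probe sets were removed, 8380 of 13966 probe sets passed the filter at the 40th percentile. The fit used R 4.3.3 and limma 3.58.1 (eBayes after lmFit, with a trend; prior degrees of freedom 5.80, residual 2) and probe sets were called at a Benjamini-Hochberg adjusted p under 0.05. An exact permutation test of 2 against 2 arrays cannot go below 0.333. The number of arrays limits the precision. The fit was tested on simulated data. Probe sets were named through the platform annotation, updated by Entrez ID to RefSeq; 12443 had 1 symbol, 327 several and 1196 none, and 12394 matched.

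The genes, the 8 lists, the tests and the naming rule were chosen with earlier results of these data known. The rule names *miple1* and *jeb*, all Alk pathway and midkine genes, the called members of other lists (or the 2 smallest p), 3 neighbours on each side and the 5 most alike genes. Alternatives were the replicate block, quantile normalization, median centring, other filters, floors and variance models, and leaving out each array.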

Additional observations from a re-analysis of the deposited data

How the results depend on the processing

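*miple1* kept its direction in all 12 alternatives that gave a value and passed in 11 (limma adjusted p from 9.07e-07 to 0.126). Those 11 all kept the 40th percentile filter, which *miple1* passed only through its mutant arrays, so they do not bear on that step. Neither change of filter gave a call. With dim probe sets kept it did not pass (log2 change 3.78), and the 60th percentile filter left *miple1* untested. Without each array in turn its log2 change was 3.35 to 4.22. *jeb* stayed lower in all 13, at -1.24 to -0.43 without an array, and passed only with the replicate number as a block (-0.83, limma adjusted p = 0.0376). With that block 5 other named genes also passed: *miple2* (limma adjusted p = 0.0366), *Ret* (0.0136), *CG6912* (0.0398), *mud* (0.0128) and *mRpL43* (0.00698). The labels do not say that a number marks a shared batch, and deviations of same-numbered arrays correlated with r = 0.183 across probe sets, so the block was not used in the main results; for *miple1* it gave 3.78. The count of changed probe sets, 255, was 825 with the replicate block, 95 without the trend and 87 to 153 without an array (117 and 87 without mutant array 1 or 2, 153 and 140 without wild-type array 1 or 2). With dim probe sets kept, limma called 0 (1782 at an unadjusted p under 0.05), with prior degrees of freedom of 1.87 in place of 5.80. Of 73 distinct list genes tested, 12 were called; this became 7 with the 60th percentile filter, 0 with dim probe sets kept (19 at an unadjusted p under 0.05) and 6 to 9 without an array (6 and 7 without wild-type array 1 or 2). Of the 12 list genes called in the main fit, 7 were in the late differentiation list. Without that list 5 of 63 list genes tested were called, beside 3.24% of all genes tested by their brightest probe set. The lists were chosen with earlier results known, so these counts cannot show that list genes were called more often than others. The percent of probe sets with no overlap between the groups was 69.9 to 76.6 on leaving out 1 array, since separating 3 arrays is easier than 4. Without an array *org-1* ran from -0.28 to 0.02 and *cnk* from -0.16 to 0.54; none of the other genes named by the rule and tested changed sign in any alternative. A lone array is assumed to vary like the other group.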
